A study of Mus musculus with 18 samples.

Results

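The comparison described here is that of AT-3 cells with wild-type MRTFA against AT-3 cells with the empty vector. It covers 6 of the 18 mRNA sequencing libraries of the study, 3 per group, and the 16202 genes of the 32286 in the deposited table that passed a filter on low counts in these 6 libraries. AT-3 is a mouse mammary carcinoma line. In the first group it carried a doxycycline-inducible pRetroX vector with wild-type MRTFA, and in the second the same vector with no insert, and both had doxycycline at 2 µg/ml for 48 h, so the drug and the vector backbone are common to them. The libraries used for comparison alone were AT-3 with Y238A MRTFA, a form that the study describes as unable to bind SRF, and E0771, another mouse mammary carcinoma line, with wild-type MRTFA or with empty vector, 3 each and under the same drug and time. The study asks how MRTFA and SRF binding bear on the stiffness of cancer cells. The labels speak of replicate sets but not of separate cultures, and do not say whether a line is a clone, so p-values measure the spread between these libraries, which may be technical.

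MRTFA is a coactivator that monomeric actin holds in the cytoplasm. When actin polymerises the monomer pool shrinks, MRTFA enters the nucleus and binds the transcription factor SRF at the CArG box, a short element that starts with CC, runs through A or T bases and ends with GG. Known targets include actins and genes of contraction, adhesion and the cytoskeleton, and in smooth and cardiac muscle the related coactivator myocardin works through the same element.

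Each library held between 81963607 and 115260128 counts, and levels are given as CPM, counts scaled to a common library total, which are not divided by gene length. A gene is said to have risen or fallen where edgeR's quasi-likelihood test over all 16202 genes gave a Benjamini-Hochberg adjusted p under 0.05, and changes are log2 fold changes of wild-type MRTFA over empty vector ± an approximate SE (n = 3 libraries each). Within the wild-type group replicate 1 differed most, with a chi-square per degree of freedom, over the counts of all genes, of 40.1 and 51.8 against the others. Those gave 7.12 between themselves. The empty vector libraries differed by 8.9 to 16.2. In the 6 libraries 62.2% to 63.95% of the nonzero counts were even, as when each mate of a fragment is counted. Intervals from counts would then be too narrow, and fold bounds against a floor of counts would be too high. Genes named as risen or fallen had groups that did not overlap. In a bulk sample, fewer cells that express a gene and less of its RNA per cell cannot be told apart.

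The label of the line was checked against 12 markers of carcinoma epithelium. Of these, 4 exceeded 1 CPM with wild-type MRTFA and 2 with empty vector. The summed level of the 12 was 42.6 to 45.0 CPM with wild-type MRTFA and 8.91 to 9.25 CPM with empty vector. All levels in this paragraph are CPM by library totals. The adhesion molecule Epcam (0.46, 0.345 and 0.7 CPM with wild-type MRTFA, 0.639, 0.852 and 0.756 CPM with empty vector) and E-cadherin, Cdh1 (0.833, 0.628 and 1.24 CPM with wild-type MRTFA, 0.502, 0.54 and 0.732 CPM with empty vector), stayed near or under 1 CPM. Most of the sum came from 2 keratins. Krt19 stood at 29.9, 31.4 and 28.03 CPM with wild-type MRTFA, against 4.11, 3.47 and 3.90 CPM with empty vector. Krt8 stood at 9.97, 8.06 and 8.63 CPM with wild-type MRTFA, against 0.0914, 0.0416 and 0.0366 CPM with empty vector. Of the 9 markers tested 5 rose, of which 2 passed the filter through wild-type libraries alone. Ehf fell, with 0.0868, 0 and 0.06 CPM with wild-type MRTFA, against 1.005, 0.976 and 0.695 CPM with empty vector, and passed through empty vector libraries alone. Krt18 had 0.347, 0.223 and 0.18 CPM with wild-type MRTFA, against 0.457, 0.582 and 0.39 CPM with empty vector, and was not called. Markers of other cell types differed between the groups as well. The 6 smooth muscle markers summed to 2780 to 2800 CPM with wild-type MRTFA and 288 to 295 CPM with empty vector, and the 7 cardiac markers to 129 to 138 CPM with wild-type MRTFA and 46.1 to 49.8 CPM with empty vector. The 6 endothelial markers reached 12.2 to 14.6 CPM with wild-type MRTFA and 2.76 to 2.79 CPM with empty vector. Vwf gave most of the gain, with 11.6, 9.82 and 8.88 CPM with wild-type MRTFA, against 0.228, 0.353 and 0.366 CPM with empty vector. For Pecam1 and Cdh5 the groups overlapped. The 7 neuronal markers reached 12.6 to 15.4 CPM with wild-type MRTFA and 61.9 to 64.1 CPM with empty vector. Nearly all of this sum came from Tubb3 and Map2. Rbfox3 went the other way, with 0.503, 0.223 and 0.34 CPM with wild-type MRTFA and 0 CPM with empty vector. The 7 leukocyte markers summed to 21.9 to 22.5 CPM with wild-type MRTFA and 3.26 to 4.02 CPM with empty vector, and Ptprc, the pan-leukocyte antigen, did not exceed 0.226 CPM in any of the 6 libraries. Cd68 gave most of the leukocyte sum, with 18.4, 18.7 and 18.7 CPM with wild-type MRTFA, against 3.3, 3.87 and 2.97 CPM with empty vector. The 7 fibroblast markers summed to 75.4 to 89.4 CPM with wild-type MRTFA and 495 to 537 CPM with empty vector, nearly all from the PDGF receptors, while Dcn, Lum and Dpt stayed under 0.3 CPM.

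The construct, counted as an entry of its own, was found where the labels place it. It stood at 6725, 4519 and 4104 CPM with wild-type MRTFA, against 0.0214, 0 and 0.0231 CPM with empty vector, or 730688, 419377 and 389484 counts against 2, 0 and 2. Wild-type replicate 1 carried the most. The mouse gene Mrtfa (ENSMUSG00000042292, chromosome 15, 81012281 to 81190757, GRCm38) had 105, 108 and 103 CPM with wild-type MRTFA, against 148, 150.4 and 148 CPM with empty vector, and fell by 0.50 ± 0.04. Its paralogue Mrtfb, which acts on SRF in the same way, had 34.5, 35.8 and 32.5 CPM with wild-type MRTFA, against 69.9, 66.9 and 63 CPM with empty vector, and fell by 0.96 ± 0.06. Srf itself (ENSMUSG00000015605, chromosome 17, 46548329 to 46556175) had 548, 546 and 554 CPM with wild-type MRTFA, against 173, 168 and 179 CPM with empty vector, a change of 1.66 ± 0.04 (edgeR quasi-likelihood test, adjusted p = 2.6e-12). In all 3 genes the groups did not overlap.

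CArG boxes lie in the promoters of several of the genes that the comparison turns on, and a few are shown so that the element can be seen in place. Sequences are from RefSeq (GRCm38.p6), the 200 bases before the start site, written in the direction of the gene, with the CArG box in capitals. Acta1 and Actc1 encode skeletal and cardiac actin, Myl9 a regulatory myosin light chain of smooth muscle, Fhl2 a LIM-domain protein that binds SRF, and Srf has a pair of boxes.
Acta1 chr8:123894776-123894975 (-): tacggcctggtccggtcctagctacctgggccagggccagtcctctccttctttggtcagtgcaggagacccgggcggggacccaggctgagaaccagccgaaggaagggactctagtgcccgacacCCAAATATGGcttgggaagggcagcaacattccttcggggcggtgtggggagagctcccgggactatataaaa
Actc1 chr2:114052876-114053075 (-): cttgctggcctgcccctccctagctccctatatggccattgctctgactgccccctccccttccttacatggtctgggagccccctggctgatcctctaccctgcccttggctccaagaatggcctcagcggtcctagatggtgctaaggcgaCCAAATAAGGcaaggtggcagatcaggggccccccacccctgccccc
Myl9 chr2:156775264-156775463 (+): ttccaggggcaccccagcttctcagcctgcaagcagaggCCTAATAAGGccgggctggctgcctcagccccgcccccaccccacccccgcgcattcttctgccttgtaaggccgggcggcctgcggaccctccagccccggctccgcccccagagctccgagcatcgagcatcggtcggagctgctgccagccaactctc
Fhl2 chr1:43196762-43196961 (-): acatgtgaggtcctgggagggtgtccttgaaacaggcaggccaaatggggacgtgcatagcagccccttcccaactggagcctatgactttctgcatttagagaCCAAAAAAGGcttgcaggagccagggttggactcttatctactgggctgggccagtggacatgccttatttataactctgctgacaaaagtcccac
Srf chr17:46556163-46556362 (-): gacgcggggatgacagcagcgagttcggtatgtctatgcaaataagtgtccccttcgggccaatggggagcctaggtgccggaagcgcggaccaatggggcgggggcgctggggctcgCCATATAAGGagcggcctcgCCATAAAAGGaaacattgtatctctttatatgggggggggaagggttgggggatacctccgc
Counting back from the start site, the box covers bases -73 to -64 in Acta1, -47 to -38 in Actc1, -161 to -152 in Myl9, -96 to -87 in Fhl2, and -82 to -73 and -62 to -53 in Srf. Of the 36 risen members of the lists of actins, smooth muscle genes and SRF regulators, 28 had a promoter in the table and 9 of these held a CArG box, among them also Actg1, Myl6, Ldb3 and Filip1l.

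Across all genes with a promoter window of 250 bases before to 50 after the start, the CArG box was found in 102 of 2698 genes that rose at least 2-fold (3.78%). It was found in 5 of 1185 that fell at least 2-fold (0.422%), in 33 of 2750 that did not pass the threshold (1.2%) and in 214 of all 12009 genes tested that have a window (1.78%). Among all 27025 genes with a window in the table the share was 1.81%. It was 4.06% of 1725 genes that rose at least 4-fold and 4.62% of 715 that rose at least 32-fold, and 0 of 252 genes that fell at least 4-fold had one. The motif was searched on both strands, and a match is a description and not a bound site. Windows were at hand for 74.2% of the genes tested, so these shares describe the matched genes alone, and over protein-coding genes of 13 better covered chromosomes they were 3.82%, 0.496% and 1.34% for genes that rose, fell and did not pass. The median GC content of the windows was 56.3% in genes that rose at least 2-fold, 59.3% in those that fell and 59.3% in those that did not pass, and the part of base composition in the shares was not tested. For comparison, GGAATG, the site of the TEAD factors, was found in 18.6%, 15.9% and 13.8% of these classes, and TGANTCA, the AP-1 site, in 10.2%, 7.85% and 7.16%.

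**Figure D1:**
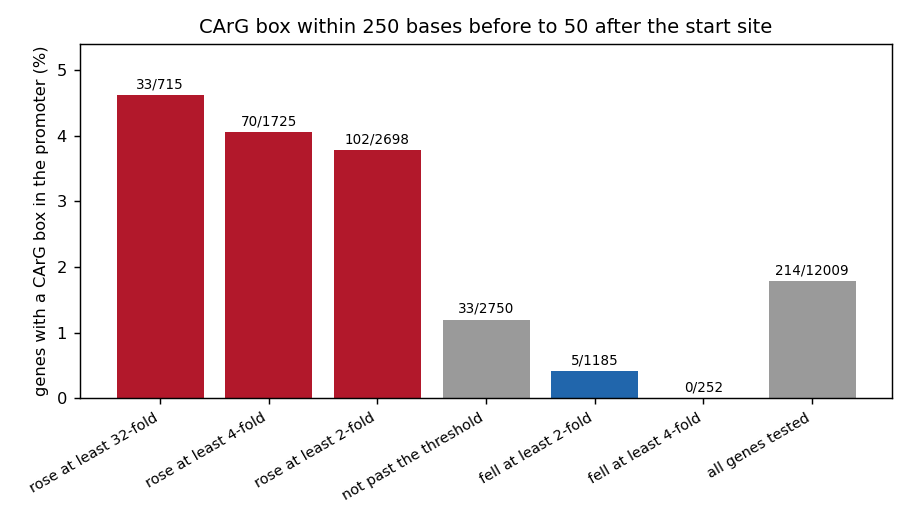
Share of genes with a CArG box within the promoter window, in percent, by class of change in AT-3 with wild-type MRTFA over empty vector; the counts over the bars are genes with a box and genes with a window. The share is 4.62% among genes that rose at least 32-fold, 1.2% among genes that did not pass the threshold and 0.422% among genes that fell at least 2-fold.

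Wild-type MRTFA changed most of the genes tested: 12309 (76%) passed, of which 6512 rose (40.2%) and 5797 fell (35.8%). Counts of members that rose or fell in the lists below are to be set beside these shares. Of the 14705 genes that did not pass the filter through 1 group alone, 5128 rose (34.9%) and 5709 fell (38.8%), with a median change of -0.03. List counts among genes that passed through neither group alone are to be set beside those shares. At 2-fold or more 3938 rose (24.3%) and 1619 fell (9.99%), and at 32-fold or more 1051 rose and 11 fell. The groups did not overlap in 12873 genes (79.5%). Which direction held more calls differed with the genes counted, as given above, and with the scaling, 5607 higher and 7033 lower with library totals. At 2-fold or more the higher calls outnumbered the lower in each of the 8 alternative scalings, filters and fits run. The median change of all genes was 0.06, or -0.11 with library totals and 0.09 with DESeq2 size factors. Small rises may thus be falls with library totals, where the median of intermediate filament and nuclear envelope genes was -0.03 in place of 0.14. Very small falls may be rises with DESeq2 size factors, where the median of TGF-beta, activin and BMP genes was 0.02 in place of -0.02.

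The direction went with the level that a gene had in empty vector cells. Below 0.1 CPM with empty vector, 89.3% of 1918 genes rose and 0% fell, but a gene that low could not meet the filter in the empty vector libraries alone, so its level with wild-type MRTFA let it pass. Between 1 and 10 CPM 34.8% rose and 39.9% fell, between 10 and 100 CPM 32.5% rose and 49% fell, and above 100 CPM 29% of 2287 genes rose and 56.4% fell. The excess of lower over higher calls above 10 CPM, 4387 against 2720, held in the same 8 alternatives. Among genes with at least 1 CPM in the lower group, 360 rose and 148 fell at least 4-fold, and 24 rose and 0 fell at least 32-fold.

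**Figure D2:**
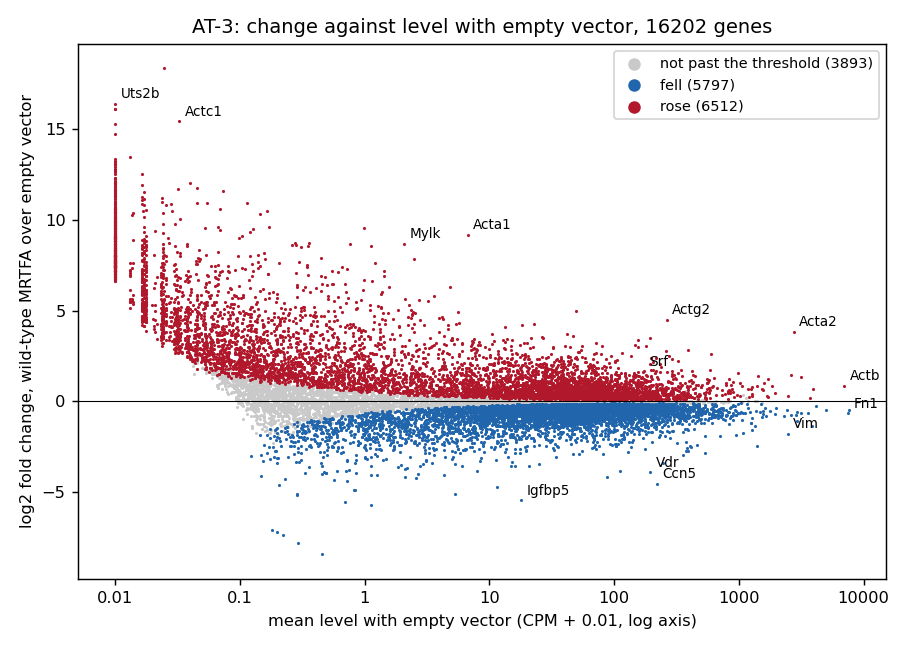
Change of each of the 16202 genes (log2 fold change of wild-type MRTFA over empty vector) against its mean level with empty vector (CPM + 0.01, log axis), with genes that rose in red (6512), fell in blue (5797) and did not pass in grey. Changes of genes at or near 0 counts with empty vector depend on the prior count of the fit, and the largest changes lie at the lowest levels.

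The actins changed together and took a large part of the libraries. All 6 actin isoforms rose, with a median of 4.16 against 0.06 over all genes, and together they made up 6.17, 6.39 and 6.26% of the counts with wild-type MRTFA and 1.25, 1.25 and 1.27% with empty vector. Acta2, smooth muscle alpha-actin (ENSMUSG00000035783, chromosome 19, 34241090 to 34255590), had 39799.9, 40077 and 38534 CPM with wild-type MRTFA, against 2709, 2784 and 2786 CPM with empty vector, a change of 3.84 ± 0.04 (edgeR quasi-likelihood test, adjusted p = 1.2e-15). Every wild-type library was far above every empty vector library, and the libraries within a group lay close together. Smooth muscle gamma-actin Actg2 (ENSMUSG00000059430, chromosome 6, 83512905 to 83536265) had 5668, 6175 and 6001 CPM with wild-type MRTFA, against 261, 267 and 268 CPM with empty vector, a change of 4.49 ± 0.05. Skeletal actin Acta1 (ENSMUSG00000031972, chromosome 8, 123891769 to 123894751) had 3734, 3899 and 3928 CPM with wild-type MRTFA, against 6.29, 6.8 and 6.98 CPM with empty vector, and rose by 9.17 ± 0.06. Here the empty vector libraries were low but not empty, and there was no overlap. Cardiac actin Actc1 (ENSMUSG00000068614, chromosome 2, 114047282 to 114053548) had 1002, 950.1 and 1010.2 CPM with wild-type MRTFA, against 0.0214, 0 and 0.0462 CPM with empty vector, and so came up from the edge of detection. The cytoplasmic actins, present in nearly all cells, rose less. Actb had 12108, 13346 and 13125 CPM with wild-type MRTFA, against 6943, 6963 and 7095 CPM with empty vector, a rise of 0.88 ± 0.04, and Actg1 rose by 0.84 ± 0.05. Actin isoforms are near-identical in coding sequence, and how reads that fit several of them were counted is not given in the sources used here, so the split between isoforms is uncertain.

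**Figure D3:**
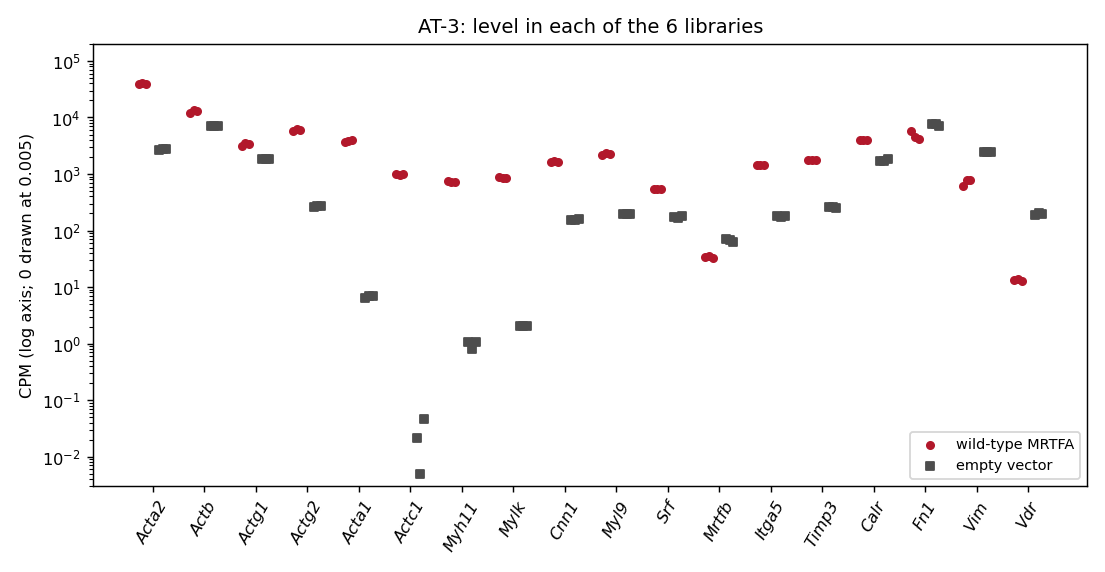
Level of 18 genes in each of the 6 AT-3 libraries (CPM, log axis, 0 drawn at 0.005), with wild-type MRTFA as red circles to the left and empty vector as grey squares to the right. Actins, Myh11, Mylk, Cnn1, Myl9, Srf, Itga5, Timp3 and Calr are higher with wild-type MRTFA in every library, and Mrtfb, Fn1, Vim and Vdr are lower in every library.

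Contractile genes of smooth muscle rose without exception: 24 of 24 tested, 21 of them at least 2-fold, with a median of 3.45, and 2 of the 24 had passed the filter through wild-type libraries alone. Myh11, the smooth muscle myosin heavy chain, had 754, 718 and 732 CPM with wild-type MRTFA, against 1.05, 0.799 and 1.08 CPM with empty vector, and rose by 9.56 ± 0.09. Myosin light chain kinase Mylk (ENSMUSG00000022836, chromosome 16, 34745210 to 35002420), which phosphorylates the light chains to start contraction, had 869, 835 and 834 CPM with wild-type MRTFA, against 2.08, 2.02 and 2.07 CPM with empty vector, and rose by 8.69 ± 0.06. Both were at the edge of 1 to 2 CPM without the construct and abundant with it. Calponin Cnn1, an inhibitor of the myosin ATPase, rose by 3.40 ± 0.04, with 1624, 1678 and 1608 CPM with wild-type MRTFA, against 154, 153 and 159 CPM with empty vector, and leiomodin Lmod1, an actin filament nucleator, by 8.55 ± 0.08. Myl9 rose by 3.51 ± 0.05, with 2135, 2316 and 2237 CPM with wild-type MRTFA, against 195, 196 and 196 CPM with empty vector. Tagln, transgelin, rose by 2.52 ± 0.07 to 32.7, 32.1 and 33 CPM with wild-type MRTFA, against 5.28, 5.99 and 5.73 CPM with empty vector. However, 67.9% of its exon bases lie within exons of other genes, Gm48529 and Pcsk7. Whether counting used the strand is not given in the sources used here, so its level is uncertain. Myocd, which encodes myocardin, was at 0.801, 0.819 and 0.759 CPM with wild-type MRTFA and at 0 counts in all 3 empty vector libraries, at least 74.4-fold higher against a floor of 3 counts over the group.

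Of 43 sarcomere genes, which build the striated muscle contractile unit, 31 were tested, 26 rose and 1 fell. The median was 5.57, but 15 of the 31 passed the filter through wild-type libraries alone and had to be higher, and among the other 16 there were 11 that rose and 1 that fell, with a median of 2.31. Genes outside the count passed through wild-type libraries alone may still owe their passing to their wild-type level, here and in the lists below. Among the list's genes of at least 1 CPM in both groups, a limit that also leaves out genes near 0 in either one, the median was 0.39. The M-band protein Myom2 had 48.5, 36 and 41 CPM with wild-type MRTFA, against 0.557, 0.414 and 0.485 CPM with empty vector, and rose by 6.43 ± 0.15. The cardiac myosin heavy chain Myh6 had 41.9, 31.3 and 33.9 CPM with wild-type MRTFA, against 0.0214, 0.0197 and 0 CPM with empty vector. Both were hardly counted without the construct. The master factors of skeletal muscle stayed near 0, Myod1, Myog and Myf5 at no more than 0.06 CPM in any of the 6 libraries. Of the cardiac markers the peptide hormone Nppb had 25.8, 31.5 and 32.4 CPM with wild-type MRTFA, against 0.343, 0.414 and 0.554 CPM with empty vector, a rise of 6.10 ± 0.15. The cardiac factor Nkx2-5 rose by 2.03 ± 0.05. In contrast the cardiac troponin T gene Tnnt2 fell by 1.54 ± 0.09, with 6.12, 7.45 and 6.65 CPM with wild-type MRTFA, against 20.5, 19.5 and 18.9 CPM with empty vector.

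Genes that turn actin filaments over and crosslink them mostly rose, 21 of 32 with 7 lower and a median of 0.63. Destrin Dstn, an actin-depolymerising factor, had 2727, 2742 and 2759 CPM with wild-type MRTFA, against 385, 402 and 391 CPM with empty vector, and rose by 2.80 ± 0.04. The related muscle cofilin Cfl2 rose by 1.92 ± 0.04, the filament-severing gelsolin Gsn by 2.07 ± 0.05, thymosin Tmsb4x, which sequesters monomeric actin, by 1.66 ± 0.04, and plastin Lcp1, a bundling protein, by 3.97 ± 0.08. By contrast the non-muscle cofilin Cfl1 did not pass (0.05, edgeR adjusted p = 0.363). Of 32 actin nucleators and membrane remodelling genes 19 rose and 11 fell (median 0.20). The nucleator Cobl had 222, 232 and 223 CPM with wild-type MRTFA, against 0.129, 0.177 and 0.162 CPM with empty vector, a change of 10.49 ± 0.08 and no overlap by a wide margin. Enah, a promoter of filament elongation, rose by 2.05 ± 0.05, while its relative Evl (-1.11) and the formins Fmnl1 (-2.14) and Fmnl2 (-1.15) fell.

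Motor and tubulin genes split. Of 22 non-muscle and unconventional myosins 12 rose and 9 fell (median 0.28), among them the membrane-linked class I motors Myo1d (2.18 ± 0.05) and Myo1e (1.86 ± 0.04), which rose, and the cargo motor Myo5a (-1.15 ± 0.04), which fell. Of 15 tubulins 3 rose and 9 fell (median -0.60). Tuba1a had 383, 461 and 458 CPM with wild-type MRTFA, against 1179.6, 1295 and 1348 CPM with empty vector, and fell by 1.55 ± 0.07. Tubb6 had 860.2, 846 and 841 CPM with wild-type MRTFA, against 313, 307 and 292 CPM with empty vector, and rose by 1.48 ± 0.04. Tubulins share sequence, so their split is uncertain too. Of 19 genes of SRF, the MRTFs and their regulators 8 rose and 10 fell (median -0.50, or -0.27 with no filter): Fhl2 (2.15 ± 0.04) and the ternary complex factor Elk1 (1.92 ± 0.05) rose, and the ternary complex factor Elk3 (-0.95 ± 0.05) and the cofilin kinase Limk2 (-1.26 ± 0.06) fell.

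At the adhesion sites that tie actin to the matrix, 24 of 33 adaptor and caveola genes rose and 6 fell (median 0.73). Vinculin Vcl had 1156, 1116 and 1095 CPM with wild-type MRTFA, against 339, 342 and 344 CPM with empty vector, and rose by 1.72 ± 0.04. Of its exon bases 25.5% are shared with Ap3m1. Talin Tln2 (2.63 ± 0.05), tensin Tns1 (3.49 ± 0.07) and the caveola coat gene Cavin1 (2.49 ± 0.06) rose and the actin-binding LIM protein Ablim1 fell (-2.51 ± 0.05). Of 20 integrins 9 rose and 8 fell, near the 40.2% and 35.8% of all genes, with a median of 0.04 that was -0.12 with library totals. The fibronectin receptor subunit Itga5 had 1455, 1468 and 1447 CPM with wild-type MRTFA, against 181, 177 and 179 CPM with empty vector, and rose by 3.03 ± 0.04. The collagen receptor subunit Itga1 rose by 4.25 ± 0.08. Itgb5, a vitronectin receptor subunit, had 85.5, 87.1 and 89.5 CPM with wild-type MRTFA, against 433, 462 and 479 CPM with empty vector, and fell (-2.39 ± 0.05), as did Itga3 (-1.27 ± 0.04).

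Matrix genes moved in both directions, as did all genes tested, of which 40.2% rose and 35.8% fell. Fibronectin, Fn1 (ENSMUSG00000026193, chromosome 1, 71585520 to 71653200), lost more CPM than any other gene that passed, with 5783, 4495 and 4168 CPM with wild-type MRTFA, against 7784, 7700.3 and 7129 CPM with empty vector, and fell by 0.65 ± 0.12 (edgeR adjusted p = 0.0017). Wild-type replicate 1 was the highest of its group, and the call was lost with all 18 libraries in the fit (-0.82, adjusted p = 0.694). Thrombospondin Thbs1 had 1377, 1589 and 1477 CPM with wild-type MRTFA, against 3859, 3930.4 and 3693 CPM with empty vector, and fell by 1.37 ± 0.05 (adjusted p = 1.39e-10 by edgeR, and 0.245 with all 18 libraries, where the change was -1.54). In E0771 with empty vector Fn1 had 0.0792, 114 and 0 CPM and Thbs1 0.574, 56.6 and 0.744 CPM. The part of this spread in the lost calls was not tested. Fibrillin Fbn1, a microfibril protein, had 400.5, 378 and 357 CPM with wild-type MRTFA, against 4.97, 5.07 and 4.52 CPM with empty vector, and rose by 6.28 ± 0.07. The laminin chain Lama4 rose by 7.88 ± 0.14. Of 47 matrix proteins and crosslinkers 16 rose and 23 fell (median -0.17). Of 29 collagens 12 rose and 10 fell (median 0.12, or -0.05 with library totals). Col18a1 rose (3.22 ± 0.08), and the collagen VI chains Col6a1 (-2.25 ± 0.06) and Col6a2 (-1.81 ± 0.08) fell. Proteases and inhibitors had 27 higher and 16 lower of 48 (median 0.57). The inhibitor Timp3 had 1747, 1788 and 1753 CPM with wild-type MRTFA, against 265, 259.9 and 250.3 CPM with empty vector, a rise of 2.77 ± 0.04. Urokinase Plau rose by 2.71 ± 0.07, and the gelatinase Mmp2 fell (-2.09 ± 0.06). The intermediate filament protein vimentin, Vim (ENSMUSG00000026728, chromosome 2, 13573927 to 13582826), had 606, 780.3 and 777 CPM with wild-type MRTFA, against 2445, 2449 and 2489 CPM with empty vector, and fell by 1.77 ± 0.09.

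**Figure D4:**
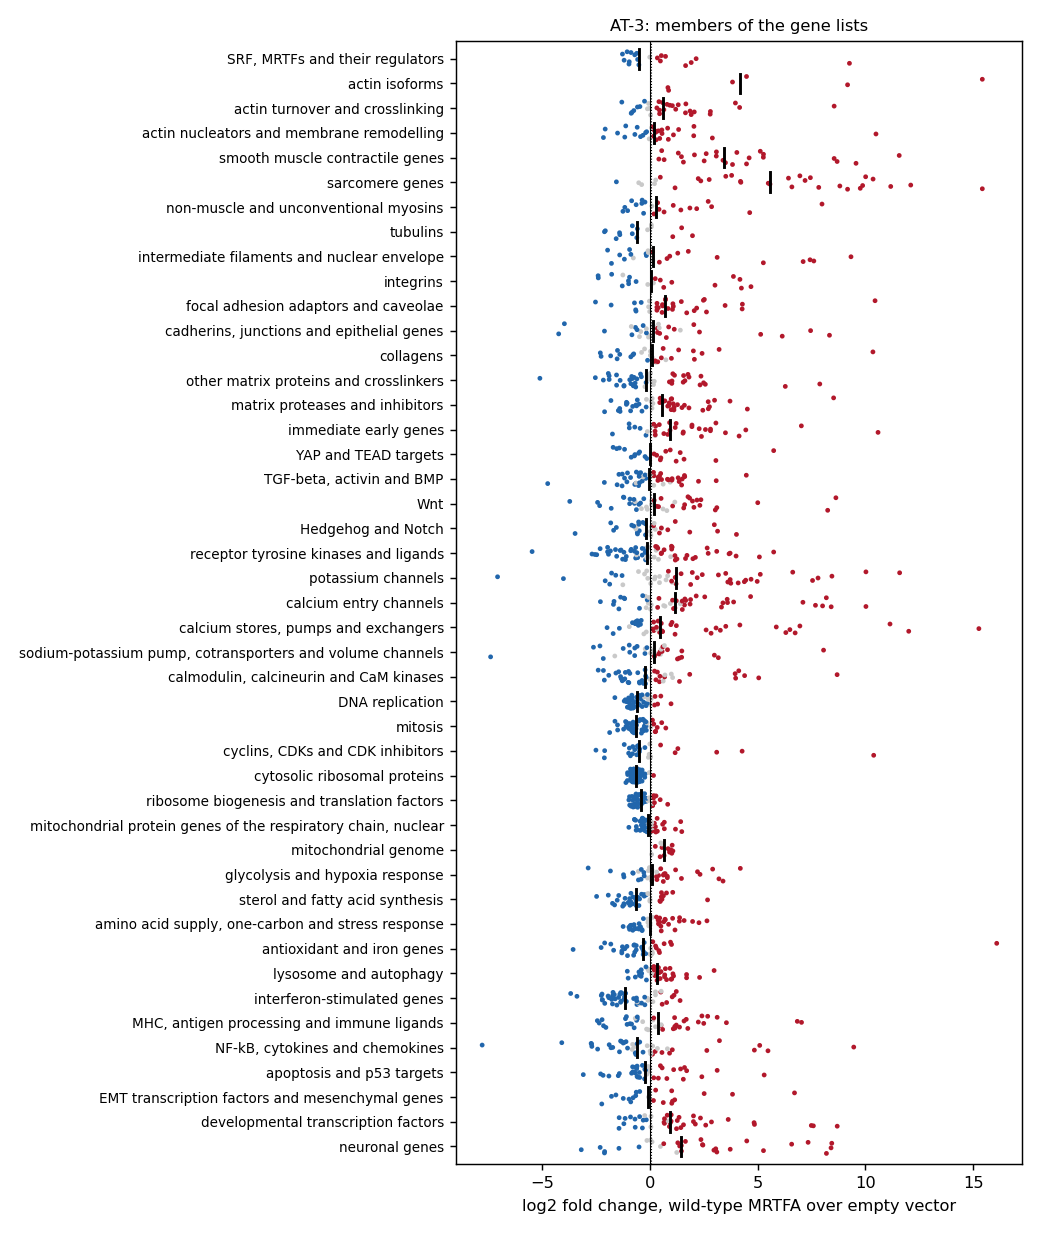
Change of every tested member of the gene lists in AT-3 (log2 fold change of wild-type MRTFA over empty vector), with members that rose in red, fell in blue and did not pass in grey; the bar is the median of the list and the dotted line that of all genes. Actins, smooth muscle genes and sarcomere genes have medians of 4.16, 3.45 and 5.57, and ribosomal protein genes cluster below 0 with a median of -0.65.

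Signalling genes showed rises and falls side by side, as did all genes tested (40.2% rose and 35.8% fell), and several lists lay near those shares. Of 35 immediate early genes, which stimulated cells switch on first, 26 rose and 6 fell (median 0.94). Egr4 had 103, 80.5 and 83.6 CPM with wild-type MRTFA, against 0.0428, 0.0197 and 0.115 CPM with empty vector. Atf3, a stress-induced factor, rose by 2.82 ± 0.10 and Zfp36, an RNA-destabilising protein, by 2.58 ± 0.06. TGF-beta, activin and BMP genes counted 20 higher and 22 lower of 49 (median -0.02, or 0.02 with DESeq2 size factors), among them the receptors Tgfbr1, which rose (1.48 ± 0.06), and Tgfbr2, which fell (-1.51 ± 0.05). The activin antagonist Fst rose (4.48 ± 0.14). The activin subunit Inhbb had 0.405, 0.474 and 0.421 CPM with wild-type MRTFA, against 9.53, 12.2 and 12.7 CPM with empty vector, and fell (-4.73 ± 0.16). Of 43 Wnt genes 19 rose and 14 fell (median 0.21). The Wnt receptor Fzd7 had 182, 191 and 192 CPM with wild-type MRTFA, against 35.7, 36.4 and 40.7 CPM with empty vector, a rise of 2.33 ± 0.06. Fzd1 was also higher (2.05 ± 0.06) and Fzd6 lower (-2.32 ± 0.08). Of 31 Hedgehog and Notch genes 9 rose and 14 fell (median -0.19, or 0.06 with no filter). The Hedgehog coreceptor Boc had 89.9, 97.6 and 91.4 CPM with wild-type MRTFA, against 9.67, 10.9 and 10.9 CPM with empty vector, and rose by 3.15 ± 0.06. The pathway's target Gli1 had 0.285, 0.69 and 0.474 CPM with wild-type MRTFA, against 5.72, 5.16 and 4.88 CPM with empty vector, and fell by 3.46 ± 0.24.

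Receptor tyrosine kinases and their ligands had 24 higher and 29 lower of 63 (median -0.11). The PDGF receptors, which are also fibroblast markers, both fell. Pdgfrb had 59.3, 67.4 and 70.5 CPM with wild-type MRTFA, against 363, 402 and 385 CPM with empty vector (-2.54 ± 0.07). Pdgfra had 17.1, 18.7 and 20.8 CPM with wild-type MRTFA, against 99, 105 and 106 CPM with empty vector (-2.45 ± 0.07). The hepatocyte growth factor receptor Met fell (-1.91 ± 0.06) and the receptor Fgfr2 rose (2.12 ± 0.06). The growth factor Igf2 had 149, 135 and 136 CPM with wild-type MRTFA, against 10.2, 10.9 and 10.7 CPM with empty vector, a rise of 3.73 ± 0.06. Targets of YAP and TEAD split evenly, 11 up and 11 down, with a median of 0.03 (-0.13 with library totals), with Amotl1 (1.59 ± 0.05) higher and the membrane repair protein Myof (-1.53 ± 0.04) lower.

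The study's title names calcium and potassium. Of 81 potassium channel genes 46 were tested, 26 rose and 7 fell (median 1.20). Of these 15 passed through wild-type libraries alone, and among 30 that passed through neither group alone 11 rose and 6 fell (median 0.46). The median of the list was 0.64 among genes of at least 1 CPM in both groups and 3.71 with a stricter filter. A gene could pass the stricter filter, too, through its wild-type libraries alone, here and in the lists below. Levels were low. The channel Kcnh1 had 7.21, 6.47 and 6.95 CPM with wild-type MRTFA, against 0.0214, 0.0592 and 0.0231 CPM with empty vector. Kcnq1 had 3.87, 4.04 and 4.02 CPM with wild-type MRTFA and 0 counts with empty vector (at least 373-fold higher). The calcium-activated Kcnn4 fell by 1.77 ± 0.09, with 4.58, 4.16 and 4.34 CPM with wild-type MRTFA, against 14.7, 14.2 and 15.6 CPM with empty vector. Of 47 tested calcium entry genes 27 rose and 10 fell (median 1.17, and 0.96 among 41 that passed through neither group alone). Among genes of at least 1 CPM in both groups the median was 0.15, and with a stricter filter 0.50. The cation channel Trpv2 had 77, 84.7 and 85.2 CPM with wild-type MRTFA, against 0.621, 0.454 and 0.738 CPM with empty vector, and rose by 7.10 ± 0.11. The mechanically gated channel Tmem63a rose by 2.16 ± 0.04. The calcium channel subunit Cacnb3, with 60.5, 63 and 64.8 CPM with wild-type MRTFA, against 195, 201 and 207 CPM with empty vector, fell (-1.68 ± 0.05).

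Calcium stores, pumps and exchangers had 27 higher and 12 lower of 43 (median 0.46, 0.19 among 34 that passed through neither group alone, and 0.28 among genes of at least 1 CPM in both groups). Calreticulin Calr (ENSMUSG00000003814, chromosome 8, 84841850 to 84846934), the calcium buffer of the endoplasmic reticulum, had 4032, 4070.1 and 4078 CPM with wild-type MRTFA, against 1665, 1699 and 1806 CPM with empty vector, and rose by 1.24 ± 0.04. Of the release channels Itpr1 rose (1.18 ± 0.06) and Itpr3 fell (-1.69 ± 0.06). The plasma membrane pump Atp2b3 had 6.07, 4.8 and 5.11 CPM with wild-type MRTFA and 0 counts with empty vector. Sodium-potassium pump, cotransport and volume genes had 14 higher and 12 lower of 34 (median 0.22). The beta subunits of the pump, Atp1b3 (1.48 ± 0.04) and Atp1b1 (1.37 ± 0.07), rose. Calmodulin, calcineurin and CaM kinase genes had 14 higher and 25 lower of 44 (median -0.20, with 5 passed through wild-type libraries alone), and S100a4 (-1.57 ± 0.06), S100a10 (-1.13 ± 0.05) and S100a13 (-1.44 ± 0.07) fell.

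Genes of growth were mostly lower. Of 77 cytosolic ribosomal protein genes 75 fell and 1 rose (median -0.65): Rpsa had 1279, 1425 and 1413 CPM with wild-type MRTFA, against 2902, 2949 and 2986 CPM with empty vector, and fell by 1.10 ± 0.05. Only 4 of them fell at least 2-fold, and ribosomal protein genes have many processed copies, so single values are uncertain. Ribosome biogenesis and translation genes had 7 higher and 40 lower of 52 (median -0.39), DNA replication genes 5 and 36 of 46 (median -0.60), and mitosis genes 7 and 41 of 50 (median -0.62). The mitotic cyclin Ccnb2 had 19.3, 22 and 22.8 CPM with wild-type MRTFA, against 78, 79.3 and 74.3 CPM with empty vector, and fell by 1.85 ± 0.07. The replication factor Mcm5 fell by 0.96 ± 0.05, but Orc6, of the origin recognition complex, rose by 0.99 ± 0.04. CDK inhibitors went both ways. Cdkn1a (p21) had 78.6, 63.7 and 66.4 CPM with wild-type MRTFA, against 9.15, 6.9 and 8.24 CPM with empty vector, and rose by 3.11 ± 0.11, and Cdkn1c (p57) rose by 4.28 ± 0.13. Cdkn2a had 27.1, 27.1 and 30.5 CPM with wild-type MRTFA, against 112, 122 and 126 CPM with empty vector, and fell (-2.09 ± 0.06), as did Cdkn2b (-2.49 ± 0.10).

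Among metabolic genes, sterol and fatty acid synthesis had 9 higher and 32 lower of 45 (median -0.63). The desaturase Scd2 had 231, 263 and 272 CPM with wild-type MRTFA, against 1131, 1504 and 1578 CPM with empty vector, and fell by 2.46 ± 0.14. Of 39 lysosome and autophagy genes 25 rose and 10 fell (median 0.35, or 0.18 with library totals). Progranulin Grn had 1936, 1943 and 1887 CPM with wild-type MRTFA, against 603, 584 and 577 CPM with empty vector, and rose by 1.71 ± 0.04, and the alpha-galactosidase Gla rose by 2.31 ± 0.05. Antioxidant and iron genes had 9 higher and 23 lower of 37 (median -0.33, or -0.19 among genes of at least 1 CPM in both groups). Nfe2l2 (NRF2), the regulator of antioxidant genes, had 49.1, 50.1 and 46.6 CPM with wild-type MRTFA, against 117, 117 and 116 CPM with empty vector, and fell (-1.26 ± 0.05), as did its inhibitor Keap1 (-1.05 ± 0.05). Nuclear respiratory chain genes had 15 higher and 34 lower of 69 (median -0.09), and of 13 protein genes of the mitochondrial genome 10 rose and 0 fell (median 0.67). Mitochondrial genes made up 1.2, 1.02 and 0.952% of the counts with wild-type MRTFA and 0.647, 0.641 and 0.777% with empty vector, and the part of this share in the change was not tested. With Y238A MRTFA in AT-3 they made up 0.979, 1.05 and 0.907%, which overlapped the wild-type shares. Of 37 genes of glycolysis and hypoxia 17 rose and 11 fell, and the median of 0.11 was -0.06 with library totals. The hypoxia-induced prolyl hydroxylase Egln3 was higher (2.92 ± 0.07) and Vegfa lower (-1.82 ± 0.07). Of 44 genes of amino acid supply and stress 20 rose and 17 fell, and the median of 0.02 was -0.15 with library totals. Edem1, a factor of protein disposal from the endoplasmic reticulum, had 809.7, 692 and 681 CPM with wild-type MRTFA, against 114, 114 and 118 CPM with empty vector, a rise of 2.65 ± 0.06. The chaperone Dnajb9 rose by 1.99 ± 0.08.

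Of 60 interferon-stimulated genes 50 were tested, 7 rose and 35 fell (median -1.13), 27 of them at least 2-fold. Among genes of at least 1 CPM in both groups the median was -0.50. The RNA sensor Ddx58 (RIG-I) had 6.83, 6.48 and 7.03 CPM with wild-type MRTFA, against 28.9, 31.6 and 32.8 CPM with empty vector, and fell by 2.20 ± 0.07. Stat3 had 408, 384 and 378 CPM with wild-type MRTFA, against 143, 149 and 149 CPM with empty vector, and rose by 1.41 ± 0.04. Of 42 NF-kB, cytokine and chemokine genes 11 rose and 21 fell (median -0.61, or -0.39 with a stricter filter). The macrophage growth factor Csf1 had 292, 356 and 345 CPM with wild-type MRTFA, against 1120.2, 1107 and 1027 CPM with empty vector (-1.71 ± 0.07). MHC, antigen processing and immune ligand genes had 21 higher and 14 lower of 42 (median 0.40, but 0.04 among genes of at least 1 CPM in both groups). The invariant chain Cd74 had 24, 18 and 20.1 CPM with wild-type MRTFA, against 0.15, 0.118 and 0.208 CPM with empty vector, and rose by 7.04 ± 0.19. Beta-2-microglobulin B2m rose by 1.38 ± 0.04, and the checkpoint ligand Cd276 (B7-H3) fell (-2.43 ± 0.06). Of 40 apoptosis and p53 genes 13 rose and 22 fell (median -0.23), among them the death receptors Fas (3.13 ± 0.08) and Tnfrsf10b (1.71 ± 0.06), which rose. The BH3-only gene Pmaip1 had 90.7, 89.6 and 88.1 CPM with wild-type MRTFA, against 2.44, 2.47 and 1.85 CPM with empty vector, a rise of 5.31 ± 0.09. Trp53 itself had 79.6, 101 and 102 CPM with wild-type MRTFA, against 209.9, 210.3 and 220.0 CPM with empty vector, and fell by 1.18 ± 0.08.

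Of 64 developmental transcription factors 40 were tested, 25 rose and 11 fell (median 0.93, with 5 of the 40 passed through wild-type libraries alone), with Msx2 (2.03 ± 0.06), Gata2 (2.12 ± 0.08) and Hoxa5 (1.44 ± 0.06) higher and Gata3, a factor of the mammary epithelium, lower (-1.20 ± 0.04; 57.1, 60.6 and 60.7 CPM with wild-type MRTFA, against 137, 137 and 134 CPM with empty vector). Of 47 neuronal genes 31 were tested, 20 rose and 6 fell (median 1.47, and 8 of the 31 passed through wild-type libraries alone). Among genes of at least 1 CPM in both groups the median was 0.15, with a stricter filter 0.45 and with no filter 2.75. Syn1, a synaptic vesicle protein, rose by 3.11 ± 0.15. The neuronal tubulin Tubb3 (7.49, 7.2 and 7.12 CPM with wild-type MRTFA, against 29.4, 29.5 and 34.4 CPM with empty vector) and the microtubule protein Map2 fell (-2.10 ± 0.08 and -2.09 ± 0.11). Intermediate filament and nuclear envelope genes counted 12 higher and 8 lower of 24 (median 0.14, or -0.03 with library totals). The keratins Krt20 (67.2, 72.7 and 68.5 CPM with wild-type MRTFA, against 0.0428, 0.0592 and 0.231 CPM with empty vector), Krt19 (3.13 ± 0.09) and Krt8 (7.43 ± 0.23) rose. Of the other keratins tested Krt17 (0.80), Krt80 (0.93) and Krt14 (-1.17) passed, and Krt7 (0.14) and Krt18 (-0.76) did not. EMT factors and mesenchymal genes counted 10 higher and 10 lower of 21 (median -0.06, or 0.01 with a stricter filter): Snai1, a repressor of E-cadherin, had 13.2, 15.3 and 15.2 CPM with wild-type MRTFA, against 64.5, 63.9 and 74.9 CPM with empty vector, and fell by 2.22 ± 0.08. Cadherin, junction and epithelial genes counted 12 higher and 8 lower of 31 (median 0.17, or -0.01 with all 18 libraries), of which 4 passed through wild-type libraries alone, and among 26 that passed through neither group alone 8 rose and 7 fell (median 0.07). Here plakoglobin Jup (351, 325 and 328 CPM with wild-type MRTFA, against 67.8, 64.9 and 69.9 CPM with empty vector) was higher (2.31 ± 0.05) and the mesenchymal cadherin Cdh11 lower (-0.82 ± 0.06).

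In all, 737 genes had at most 3 counts over the 3 empty vector libraries and passed the filter, so that all 737 had to be higher with wild-type MRTFA, and 207 of them reached 1 CPM and 23 reached 10 CPM there. 520 were protein-coding and 213 long non-coding genes, 70.6% and 28.9%, against 88.7% and 11.2% of all genes tested. Uts2b, a precursor of a urotensin peptide, had 98.4, 116 and 120.0 CPM with wild-type MRTFA, and Havcr1, a surface receptor also known as KIM-1, had 84.9, 90.1 and 93.2 CPM, both with 0 counts in every empty vector library. Rhcg, an ammonium transporter, had 58.5, 46.1 and 45.3 CPM and 2 counts in all with empty vector, a count ratio of 7086 with a 95% counting interval of 1961 to 58519. The opposite was rare, with 10 genes at no more than 3 counts over the wild-type libraries, and none of those met the rule for naming.

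Outside the fixed lists, large changes were seen among genes that both groups expressed. With at least 1 CPM in both groups, Sprr2k, a cornified envelope protein, had 541, 604 and 563 CPM with wild-type MRTFA, against 2.42, 2.5 and 2.49 CPM with empty vector, and rose by 7.85 ± 0.07. Apol10b rose by 7.16 ± 0.06, and Crispld2, a secreted protein, by 7.62 ± 0.14. On the other side Ccn5 (ENSMUSG00000027656, chromosome 2, 163820861 to 163833146), a matricellular protein, had 8.28, 10.2 and 10.3 CPM with wild-type MRTFA, against 202, 227 and 231 CPM with empty vector, and fell by 4.52 ± 0.09. The vitamin D receptor Vdr (ENSMUSG00000022479, chromosome 15, 97854425 to 97910630) had 13.1, 13.6 and 12.6 CPM with wild-type MRTFA, against 189, 200.2 and 198 CPM with empty vector, and fell by 3.90 ± 0.05. Cyp1b1, a hydroxylase of the cytochrome P450 family, fell by 4.14 ± 0.06, Synpo, an actin-binding protein, fell by 3.83 ± 0.08, and Masp1, a complement protease, fell by 3.39 ± 0.09.

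Whether the change was particular to AT-3 was tested as the difference between the lines in a fit of all 18 libraries. In E0771 wild-type MRTFA changed 3635 of the same genes (22.4%), 2294 higher and 1341 lower, with a median size of the calls of 0.43 against 0.87 in AT-3. That AT-3 median and the AT-3 calls in the next shares are from the fit of 6 libraries. Those of E0771 are from the fit of 18, which called 5372 genes higher and 6892 lower in AT-3. The part of this in the sizes and shares was not tested. Of the genes higher in AT-3, 28.8% were also higher in E0771, and of those higher in E0771, 81.7% were also higher in AT-3. For genes that were lower, the shares were 17.9% and 77.2%. The effect differed between the lines in 8873 genes (54.8%), above 0 in AT-3 minus E0771 in 2952 and below 0 in 5921, but 4496 and 4321 with DESeq2. The split moved with the scaling and with single libraries: 33.3% of calls were above 0 with TMM scaling, and 50.4% with DESeq2 size factors, where the median difference of all genes was 0.06 in place of -0.16. Without AT-3 wild-type replicate 1 the counts were 3985 and 3860, without replicate 2 3958 and 3985, and without replicate 3 4009 and 3989. The construct had 389484 to 730688 counts in AT-3 and 59600 to 96529 in E0771, so the line and the amount of construct cannot be told apart here. E0771 wild-type replicate 2 held a median 0.555% and E0771 empty vector replicate 2 a median 1.33% of the AT-3 level of 164 genes that E0771 hardly expresses, while the remaining E0771 libraries used had 0.0216% or less. Without both the counts were 2718 and 5548.

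Of the 39 genes named for a gain, a loss or a fold in AT-3, the difference between the lines passed in 28. Of these, 23 had the log2 fold change of larger size in AT-3. The 39 genes were chosen for their change in AT-3, so that count is given as a description. Values in this comparison of single genes are from the fit of 18 libraries, in which the AT-3 changes are lower by about the shift in the median. Among the 10 largest gains in CPM the difference passed in 8, and 5 of these had the larger log2 fold change in E0771. In CPM all of the 5 but Actb gained more in AT-3, where their level with empty vector was higher. Acta2 went from a mean of 2760 CPM to 39470.5 CPM in AT-3, and from 415 to 10921 CPM in E0771. The change of Acta2 was 3.67 in AT-3 against 4.72 in E0771, a difference of -1.05 (adjusted p = 6.24e-05 by edgeR). That of Actg2 was 4.32 in AT-3 against 8.07 in E0771, a difference of -3.75 (adjusted p = 0.000634). Actb, the tropomyosin Tpm1 and the LIM protein Csrp1 were the others, but Tpm1 and Csrp1 lost the call with DESeq2 and without any 1 of the AT-3 wild-type libraries. For Acta1 the difference was 0.45 and did not pass. Mylk had 846 CPM on average with wild-type MRTFA and 2.05 CPM with empty vector in AT-3, and 61.7 and 2.13 CPM in E0771, a difference of 3.66 ± 0.58 (edgeR quasi-likelihood test of the difference, adjusted p = 0.000124). Ly6a, a surface protein, changed by -3.74 in AT-3 and -0.10 in E0771, a difference of -3.64 ± 0.12 (adjusted p = 3.17e-14). For Vim the change was -1.94 in AT-3 and -0.22 in E0771, a difference of -1.72 ± 0.09. For Rpsa it was -1.27 in AT-3 against -0.13 in E0771, a difference of -1.15 ± 0.07. Calr was 1.07 in AT-3 and 0.05 in E0771, a difference of 1.02 ± 0.12. The list counts below are from the fit of 6 libraries for AT-3. Over all genes the difference between the lines passed in 54.8%, the share to set beside the count of each list. All 6 actin isoforms rose in both lines, with a median of 4.16 in AT-3 and 6.39 in E0771, and the difference passed in 4. The 24 smooth muscle genes rose in both lines too, with a median of 3.45 in AT-3 and 2.56 in E0771, and the difference passed in 16. Of 31 sarcomere genes 26 rose in AT-3 and 18 in E0771, with medians of 5.57 and 1.84, and the difference passed in 19. Of the 50 interferon-stimulated genes, 7 rose and 35 fell in AT-3, with a median of -1.13 (-1.30 in the fit of 18 libraries), against 21 and 1 in E0771, with a median of 0.34. The difference passed in 42 of the 50, against 54.8% of all genes. The 13 mitochondrial genome genes had 10 higher in AT-3 and 0 higher or lower in E0771, and the difference passed in 9. In AT-3 the mitochondrial share of counts was above that of empty vector with Y238A MRTFA as well.

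**Figure D5:**
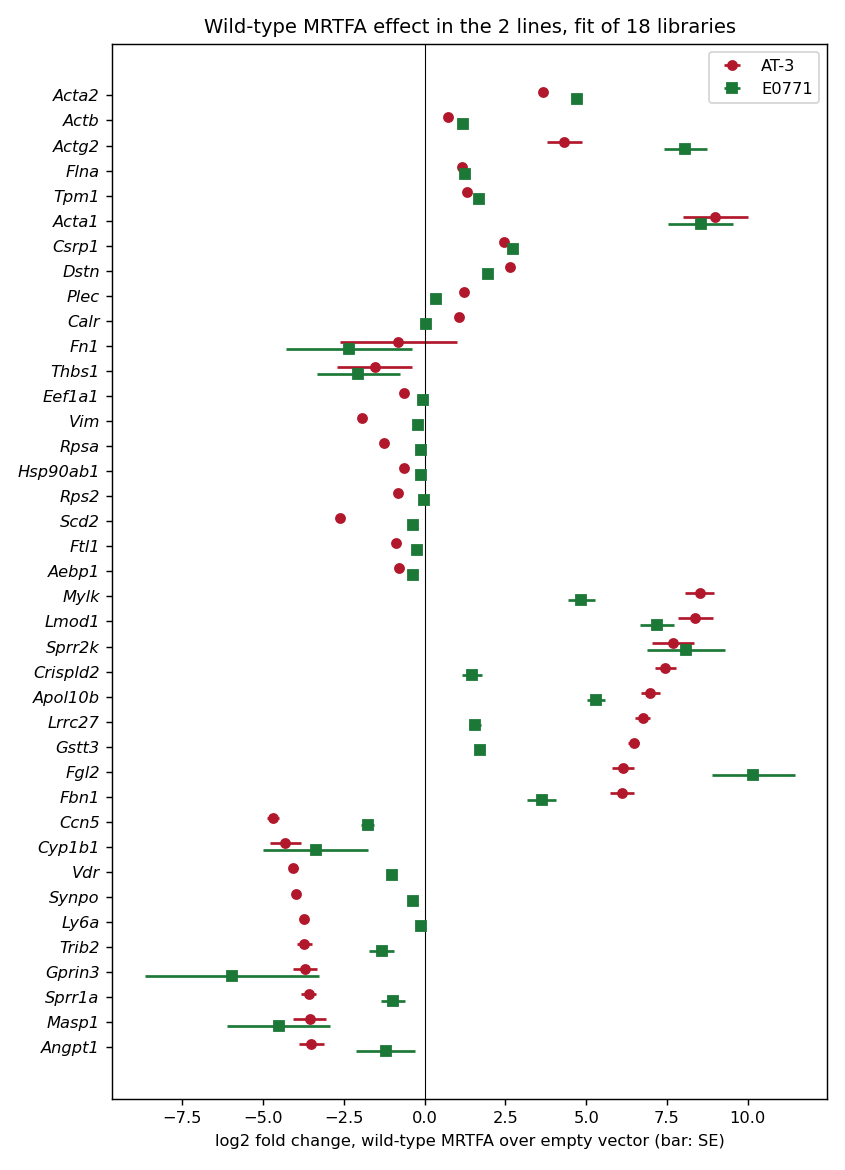
Change with wild-type MRTFA over empty vector (log2 fold change, bar for the SE) of the 39 genes named for a gain, a loss or a fold in AT-3, in AT-3 (red circles) and E0771 (green squares), in the fit of 18 libraries. The difference passed in 28, and Acta2, Actb and Actg2 are among those with the larger log2 fold change in E0771.

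AT-3 cells with Y238A MRTFA share the wild-type libraries with the main comparison when set against them, so no overlap is given. In all, 11837 genes (73.1%) differed between wild type and Y238A. The construct was less abundant as Y238A than as wild type (186620 to 234338 counts, against 389484 to 730688). Srf had 96.4, 87.5 and 92.4 CPM with Y238A, a difference of wild type over Y238A of 2.52 ± 0.07. Acta2 had 1996, 1504 and 1358 CPM with Y238A, and the difference was 4.55 ± 0.13. Acta1 had 44.8, 9.83 and 2.68 CPM and Actc1 11.6, 3.14 and 0.836 CPM with Y238A, with replicate 1 the highest each time. That library held a median 1.41% of the wild-type level of 23 genes that empty vector cells hardly express, against 0.237% and 0.121% in the other Y238A libraries. Without it the difference of Acta1 was 9.21 in place of 7.60 and that of Actc1 8.89 in place of 7.51.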

How the data were processed

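Raw counts per gene were deposited by the authors. Per the labels, RNA came from RNeasy columns and the library kit was NuGen Universal Plus mRNA. Reads were aligned with STAR to GRCm38 and counted with featureCounts, per the submitters' processing notes. Versions, annotation release, strand setting and the source of the MRTFA entry, read here as the construct, are not given in the sources used here. Symbols and coordinates were taken from GENCODE M21 (GRCm38) for 32235 of 32286 entries.

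The tests were run with edgeR 4.0.16 under R 4.3.3. The 6 AT-3 wild-type and empty vector libraries were filtered with filterByExpr (minimum count 10, minimum total 15), which kept 16202 genes, left out 7743 with 0 counts and 8341 with few, and lies near 0.103 CPM. 1387 genes passed through the wild-type libraries alone and 110 through the empty vector libraries alone. The quasi-likelihood F test (robust, after TMM scaling) was used, with 4 residual degrees of freedom and Benjamini-Hochberg adjustment at 0.05. The SE is the log2 fold change over the root of F, an approximation. The line difference and the Y238A contrast came from all 18 libraries with 6 group means on the same genes (12 residual degrees of freedom). Of the steps, only the edgeR fits of the main comparison, the line difference and the Y238A contrast were tested on simulated data. Far fewer genes changed there than here, so the scaling was not tested under changes this wide.

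Replicate numbers did not pair the libraries: the deviations of same-numbered libraries correlated at 0.053, -0.018 and 0.033.

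The members and gene lists were chosen with earlier results of these data known, so no pattern here is independent support for those results. Named genes were the construct, Mrtfa, Mrtfb and Srf, per direction the 10 largest gains and losses in mean CPM and the 10 largest changes with at least 1 CPM in both groups, the 10 most abundant of those with at most 3 counts over empty vector, and up to 6 members per list by smallest p. All had groups that did not overlap. Epcam, Cdh1, Ptprc, Cfl1, Trp53, Myl9 and a few others were named outside this rule, after their values were seen. Fewer genes are named than the rule allows. Trpc2, Mx1, Mx2 and Cxcl11 were not analysed here, and a few genes and 1 gene list are not reported here.

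For genes without counts in a group the fold is a bound against a floor of 3 counts over that group. With 1 to 3 counts a ratio is given with its 95% interval, which covers counting error alone. Promoter windows were those of RefSeq (GRCm38.p6). The alternatives tried were another tool (DESeq2 1.42.0), scaling by library totals or by DESeq2 size factors, dropping the filter or raising it (a mean of 50 counts and 1 CPM in at least 3 libraries), a replicate block, all 18 libraries, a limit of 1 on the log2 fold change and each library left out, and, chosen after seeing the data, only genes with at least 1 CPM in both groups, the better covered promoters, and the line difference without 2 E0771 libraries.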

Additional observations from a re-analysis of the deposited data

Results flagged for a closer look

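The effect of wild-type MRTFA differed between AT-3 and E0771 in 8873 genes by the test of the difference itself, and in 28 of the 39 genes that were named for a gain, a loss or a fold in AT-3. As log2 values of AT-3 minus E0771, the differences among gains were 0.66 for Dstn, 0.88 for the cytolinker Plec, 1.02 for Calr, -0.29 for Csrp1, -0.38 for Tpm1, -0.49 for Actb, -1.05 for Acta2 and -3.75 for Actg2. Among losses they were -0.45 for Aebp1, -0.55 for the chaperone Hsp90ab1, -0.57 for the elongation factor Eef1a1, -0.66 for the ferritin chain Ftl1, -0.79 for the ribosomal protein gene Rps2, -1.15 for Rpsa, -1.72 for Vim and -2.27 for Scd2. Among the largest rises they were 1.68 for Apol10b, 2.50 for Fbn1, 3.66 for Mylk, 4.76 for the glutathione transferase Gstt3, 5.18 for Lrrc27 and 6.0 for Crispld2, and among the largest falls -2.39 for Trib2, -2.61 for Sprr1a, -2.92 for Ccn5, -3.07 for Vdr, -3.63 for Synpo and -3.64 for Ly6a. Over 20 alternatives per gene, which include each library left out and other scalings, 25 of the 28 kept their sign and call, and Csrp1, Tpm1 and Fbn1 (adjusted p = 0.0628 without E0771 empty vector replicate 3, edgeR) did not. The smaller differences moved in size. The highest value over the alternatives was -0.20 for Actb, -0.16 for Aebp1, -0.28 for Eef1a1 and -0.26 for Hsp90ab1. For Ftl1 it was -0.38 and for Dstn 0.95. Without the replicate 2 libraries of E0771 with wild-type MRTFA and with empty vector, which had counts of genes that E0771 hardly expresses, the value of Ccn5 was -3.16 and that of Crispld2 6.04. Crispld2 is low in E0771, with a mean of 4.18 CPM with wild-type MRTFA and 1.53 CPM with empty vector. Where those counts came from and why the lines differ was not tested. Groups of 3 libraries are too small to search for a library far from the others.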

How the results depend on the processing

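Every gene named by the rule kept its direction in AT-3 in all alternatives, and the call was lost with all 18 libraries in the fit for Fn1 (adjusted p = 0.694), Thbs1 (0.245), Kdr (0.189), Perp (0.104) and Sox4 (0.0582), and for Kdr also without wild-type replicate 2 (0.053). Genes called higher and lower were 6512 and 5797, and 6195 to 6335 and 5451 to 5805 with 1 library left out. With an added log2 limit of 1 they were 3938 and 1619, and among genes of at least 1 CPM in both groups, fitted alone, 4326 and 4412. With library totals they were 5607 and 7033, with all 18 libraries 5372 and 6892, and with the replicate block 6368 and 5739, and the block ended no call of a named gene. For the difference between the lines, genes above 0 were 2952, or 4496 with DESeq2 and 2789 to 4009 with libraries left out. Genes below 0 were 5921, or 3510 with a stricter filter and 3860 to 5850 with libraries left out, the lowest without AT-3 wild-type replicate 1 (3860). For single genes it changed sign with a call on one side for Csrp1 (0.00163) and Flna (0.20) with a stricter filter, and for Thbs1 (-3.17) and Masp1 (-2.56) without libraries with counts of genes that their group hardly expresses. With 1 library left out Thbs1 ran from -4.35 to 1.73 and Masp1 from -2.64 to 1.53, the lowest without E0771 empty vector replicate 2. List medians within 0.3 of 0 often moved by over 1.5 times or changed sign. The share of promoters with a CArG box among genes that fell was 0.422%, or 0% at 4-fold. The cause of these shifts was not tested. With 3 libraries per group, the depth limits what can be said of genes under 0.1 CPM, and a gene at 0 counts is only known to lie under the floor.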
